A study of Homo sapiens with 6 samples.

Results

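A block of 46 neighbouring genes on the long arm of chromosome 19, in band 19q13.2, was followed across 6 RNA-seq libraries of the human pancreatic cancer cell lines MIA-PaCa2 and PANC-1. The 46 genes were taken by name out of 27408 genes in the deposited expression table, because the genes from SAMD4B to AKT2 had been seen to be far higher in PANC-1 than in MIA-PaCa2, and the flanks on both sides were added by position. The difference between the lines therefore chose the block, and it is given below as a description with no test. In chromosome order, 12 members lie before SAMD4B, 22 lie from SAMD4B to AKT2, and 12 lie after AKT2. All 22 of the SAMD4B to AKT2 members were higher in each PANC-1 library than in any MIA-PaCa2 library. The name "high in PANC-1" did not hold for the whole block. After AKT2, 4 of 12 members had every PANC-1 value above every MIA-PaCa2 value, and 5 had every value below. Of the 11829 genes that passed the expression filter described below, 43.1% were above and 36.3% below in this sense.

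The study placed ESRP1 or ESRP2, epithelial splicing regulatory proteins that bind RNA and steer exon choice, into both lines to examine their function in pancreatic cancer progression. Each line was sequenced as an LPCX control, an ESRP1 overexpression line and an ESRP2 overexpression line, with 1 library for each of the 6 groups. All cells grew in DMEM with 10% fetal bovine serum, and sequencing libraries were prepared with a TruSeq mRNA kit, each out of 2 ug of RNA. Expression is in TPM, a transcript abundance scaled by length and to a fixed sum in each library, so the read depth behind a value is unknown. Within a line the 3 libraries carry different constructs and nothing states separate cultures, so every spread or p-value below measures only the spread among these libraries. Values are listed in the order LPCX, ESRP1, ESRP2.

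Chromosome band 19q13 is known from work on pancreatic cancer as a region that can be amplified, with AKT2 and PAF1 as the genes most often named in it. AKT2 is a serine/threonine kinase that acts downstream of phosphoinositide 3-kinase in insulin and growth factor signalling. PAF1 is the founding subunit of the PAF1 complex, which travels with RNA polymerase II and promotes elongation and histone modification. DNA copy number was not analysed here, and in bulk libraries more cells with a transcript and more transcript per cell cannot be told apart.

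The libraries carried their constructs, with ESRP1 at 367 TPM in the MIA-PaCa2 ESRP1 library and 491 TPM in the PANC-1 one, against at most 0.261 TPM in the other libraries. ESRP2 was at 197 and 308 TPM in its own libraries, and at 34.8 and 37.7 TPM in the other PANC-1 libraries. Keratin genes KRT8, KRT18 and KRT19 were expressed in all 6 libraries, at 234 TPM or more. Of the other epithelial markers, EPCAM was listed at 0 in MIA-PaCa2 and at 24.4 to 28.2 TPM in PANC-1. CDH1 was at most 0.173 TPM in MIA-PaCa2 and at 3.89 to 8.59 TPM in PANC-1. Leukocyte, endothelial and acinar markers (PTPRC, CD3E, CD14, PECAM1, PRSS1, CPA1) and the fibroblast marker DCN were all below 1 TPM. COL1A2, a collagen gene and the other fibroblast marker examined, was at 122 to 132 TPM in MIA-PaCa2 and at most 0.0593 TPM in PANC-1.

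The block spans 1.87 Mb of chromosome 19, from RINL to ITPKC (chr19:38867834-40740860, GRCh38, GENCODE release 29). SAMD4B to AKT2 takes up 943 kb of it (chr19:39342396-40285536). Of the 46 members, 38 reached 5 TPM in at least 2 libraries and entered the models described below. The other 8 were RINL, NCCRP1, SYCN, GMFG, FCGBP, CNTD2, HIPK4 and SPTBN4, which stayed at or below 4.63 TPM in every library. SYCN, which encodes the pancreatic zymogen granule protein syncollin, was listed at 0 in all 6. Of the 20 SAMD4B to AKT2 members that passed, 5 did so only through their PANC-1 values.

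**Figure D1:**
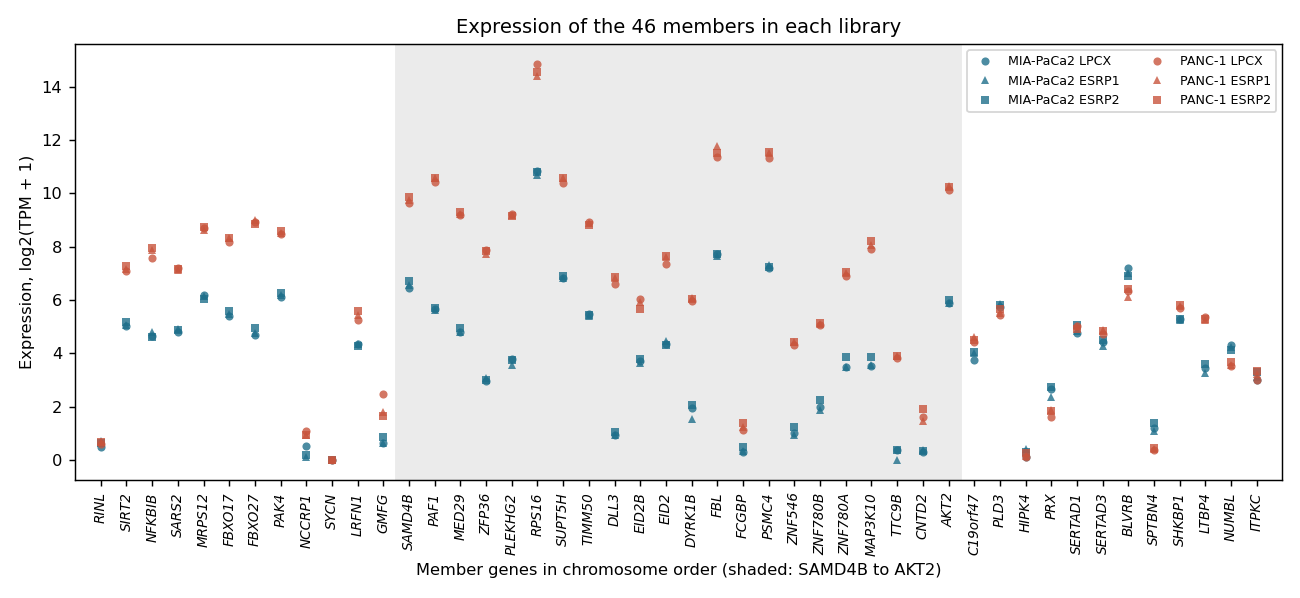
Expression of the 46 members in each library as log2(TPM + 1), in chromosome order, with blue marks for the 3 MIA-PaCa2 libraries, red marks for the 3 PANC-1 libraries, and circles, triangles and squares for LPCX, ESRP1 and ESRP2. In the shaded stretch from SAMD4B to AKT2 the red marks lie above the blue marks for all 22 genes, and after AKT2 the 2 colours lie close together or cross.

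Several members between SAMD4B and AKT2 act in transcription by RNA polymerase II. PAF1 (chr19:39385852-39391195, minus strand) measured 50.2, 48.2 and 51.6 TPM in MIA-PaCa2 and 1384, 1524 and 1527 TPM in PANC-1. The groups were far apart, with means of 49.98 ± 1.71 and 1478 ± 81.6 TPM (SD, n = 3 libraries), a 29.6-fold difference. MED29, a subunit of the Mediator complex that links transcription factors to RNA polymerase II, measured 26.9, 26.6 and 29.9 TPM in MIA-PaCa2 and 579, 604 and 627 TPM in PANC-1. SUPT5H, the large subunit of the elongation and pausing factor DSIF, measured 111, 112 and 119 TPM in MIA-PaCa2 and 1334, 1517 and 1511 TPM in PANC-1. The MED29 and SUPT5H means differed 21.7-fold and 12.8-fold, and neither gene's groups overlapped. EID2 and EID2B are related inhibitors of EP300-dependent transcription. EID2 was at 19.5, 20.9 and 19.01 TPM against 161, 197 and 199 TPM, a 9.38-fold difference. EID2B differed less, at 12.0, 11.4 and 12.7 TPM against 65.4, 59.9 and 49.9 TPM, and its 4.86-fold difference was the smallest among the SAMD4B to AKT2 members that passed the filter. How reads that fit both EID genes were shared between them is not known.

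Several members are transcribed away from each other out of a short shared stretch of DNA. GENCODE places 7 pairs of members head to head with start sites within 401 bases, and in 3 of them (SIRT2 and NFKBIB, SARS2 and MRPS12, C19orf47 and PLD3) the genes overlap at their starts. Whether the counting used strand is not stated, so reads from overlapping pairs cannot be told apart there. The PAF1 and MED29 starts lie 108 bases apart, and both genes had differences above 4 on the log2 scale, at 4.86 and 4.39. The RPS16 and SUPT5H starts lie 208 bases apart, with log2 differences of 3.82 and 3.66. GMFG and SAMD4B start 24 bases apart but differed, with GMFG at 0.543 to 0.827 TPM in MIA-PaCa2 and 2.17 to 4.63 TPM in PANC-1, against 87.0 to 105 and 805 to 927 TPM for SAMD4B. The bases between the exons of the PAF1 and MED29 pair and of the RPS16 and SUPT5H pair are printed because each serves as the upstream sequence of 2 members at once, followed by the stretch just upstream of AKT2, where the high block ends. They were read from RefSeq (GRCh38.p14) on the strand of the gene named first, and cover chr19:39391196-39391302, chr19:39435949-39436155 and chr19:40285537-40285595, all minus strand. Capitals mark GGGCGG, the letters of a GC box, and CCAAT, the letters of a CCAAT box, read on either strand.
PAF1 with MED29: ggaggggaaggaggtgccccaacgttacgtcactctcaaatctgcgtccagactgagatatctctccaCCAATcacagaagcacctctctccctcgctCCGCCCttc
RPS16 with SUPT5H: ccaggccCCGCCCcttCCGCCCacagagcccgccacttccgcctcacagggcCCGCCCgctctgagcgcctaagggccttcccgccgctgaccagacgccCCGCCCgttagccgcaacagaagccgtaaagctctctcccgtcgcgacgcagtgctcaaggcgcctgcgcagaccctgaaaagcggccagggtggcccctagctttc
AKT2: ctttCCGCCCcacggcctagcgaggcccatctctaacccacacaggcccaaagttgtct

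The stretch of 107 bases between PAF1 and MED29 held 1 GGGCGG and 1 CCAAT, the 207 bases between RPS16 and SUPT5H held 4 GGGCGG, and the 59 bases upstream of AKT2 held 1 GGGCGG. Over windows of 250 bases before the RefSeq start farthest upstream, 43 of the 46 members had an entry and CNTD2, DLL3 and NCCRP1 did not. GGGCGG, on either strand, was in 76.7% of the 43 member windows and in 80.0% of the 20 windows from SAMD4B to AKT2, against 42.2% of 27305 windows over all genes. CCAAT was in 46.5% of member windows and 33.0% of all windows, and TATAAA, the letters of a TATA box, in 4.65% and 11.2%. CACGTG, an E-box, was in 6.98% and 6.46%. The member windows had a median GC content of 64.8% against 57.6% over all windows, and the windows of head-to-head pairs share bases. The 27305 windows include genes that did not pass the expression filter, and windows of expressed genes alone were not compared. A motif that overlaps another was counted under both names.

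Genes for RNA metabolism and the ribosome included the members with the highest levels. RPS16 (chr19:39433207-39435948), a protein of the small ribosomal subunit, measured 1851, 1676 and 1792 TPM in MIA-PaCa2 and 29840.3, 21791 and 23955 TPM in PANC-1. The PANC-1 LPCX library held the highest RPS16 value, the groups did not overlap, and the means differed 14.2-fold. How reads that also fit processed copies of RPS16 elsewhere in the genome were assigned is not known. FBL (fibrillarin), the methyltransferase of box C/D small nucleolar particles that modify ribosomal RNA, was at 212.5, 199 and 211 TPM in MIA-PaCa2 and 2629, 3499 and 2949 TPM in PANC-1. ZFP36 (tristetraprolin) binds AU-rich elements and promotes decay of the messages that carry them. It was at 6.88, 7.55 and 6.94 TPM in MIA-PaCa2 and 233, 211 and 226 TPM in PANC-1, a 31.3-fold difference. SAMD4B, a relative of the RNA-binding protein Smaug, differed 9.14-fold. The 4 genes thus covered a wide range of levels in each line, from ZFP36 to RPS16, with no overlap between lines in any of them.

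The proteasome and mitochondrial import were each represented between SAMD4B and AKT2 by a subunit of a larger complex. PSMC4, an ATPase subunit of the base of the 19S proteasome cap, measured 145, 158 and 151 TPM in MIA-PaCa2 and 2557, 2905 and 3019 TPM in PANC-1, an 18.7-fold difference. TIMM50, the receptor subunit of the TIM23 translocase of the inner mitochondrial membrane, measured 43.5, 41.4 and 42.6 TPM in MIA-PaCa2 and 484, 478 and 451 TPM in PANC-1, an 11.1-fold difference. Both were separated by far more than the spread among the 3 libraries of a line.

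Kinases and regulators of small GTPases formed the other large group. AKT2 (chr19:40230317-40285536, minus strand) measured 58.7, 58.3 and 62.6 TPM in MIA-PaCa2 and 1106, 1234 and 1209 TPM in PANC-1. Its means were 59.9 ± 2.38 and 1183 ± 67.4 TPM (SD, n = 3 libraries), a 19.8-fold difference with no overlap. MAP3K10 (MLK2), a kinase upstream of JNK, measured 10.4, 11.0 and 13.6 TPM in MIA-PaCa2 and 242, 264 and 299 TPM in PANC-1. DYRK1B, a kinase known for holding cells in quiescence, measured 2.82, 1.92 and 3.21 TPM in MIA-PaCa2 and 61.0, 65.7 and 64.9 TPM in PANC-1. These 2 kinases differed 23.0-fold and 24.1-fold. PLEKHG2, an exchange factor for small GTPases, measured 12.9, 10.7 and 12.7 TPM in MIA-PaCa2 and 604, 577 and 563 TPM in PANC-1. At 48.1-fold, PLEKHG2 had the largest difference among members with at least 5 TPM in all 6 libraries.

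DLL3 and TTC9B went from near 0 to moderate levels. DLL3, a Notch ligand that acts inside the cell to inhibit Notch signalling, was at 0.934, 0.935 and 1.09 TPM in MIA-PaCa2 and at 95.5, 111 and 116 TPM in PANC-1. Its log2 difference of 5.77 was the largest of the block and larger than that of 99.6% of the 11829 genes that passed the filter. TTC9B, which encodes a tetratricopeptide repeat protein, was listed at 0 in 1 MIA-PaCa2 library, was at most 0.288 TPM in the others, and was at 13.1, 13.9 and 14.0 TPM in PANC-1. Further genes of low level encode zinc finger proteins, a class of DNA-binding repressors. ZNF546 was at 0.910 to 1.36 TPM in MIA-PaCa2 and 18.8 to 20.4 TPM in PANC-1. ZNF780A was at 10.1 to 13.5 TPM against 119 to 131 TPM, and its near copy ZNF780B at 2.67 to 3.80 TPM against 32.9 to 34.6 TPM, with an unknown split of reads between those copies. The members from this stretch that missed the filter, FCGBP and CNTD2, were at most 0.386 TPM in MIA-PaCa2 and between 1.16 and 2.72 TPM in PANC-1.

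Over the 20 SAMD4B to AKT2 members that passed the filter, the median log2 difference was 3.83, ranging from 2.18 for EID2B to 5.77 for DLL3. Over all 22 members of this stretch, with those below the filter, the median was 3.74. By construct the median of these 22 was 3.60 between the LPCX libraries, 3.82 between the ESRP1 libraries and 3.70 between the ESRP2 libraries. Over all 11829 genes the median was 0.08. A difference of 3 or more, which is 8-fold, was reached by 21 of the 38 members that passed, and by 3.96% of all genes. Of these 21, 19 lay from SAMD4B to AKT2, and the others were NFKBIB and FBXO27. Every PANC-1 library was above every MIA-PaCa2 library for 36 of all 46 members and for 32 of the 38, against 43.1% of all genes, and below for 4 of the 38, against 36.3%. These counts describe how the block was chosen and support nothing further.

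Across the 20 genes, the order of levels was much the same in the 2 lines. The mean log2 level in MIA-PaCa2 and that in PANC-1 correlated at Pearson's r of 0.95 and a Spearman coefficient of 0.93 (n = 20 genes, which share the libraries, and genes are not independent replicates). These genes were chosen for their difference, and 5 of them passed the filter only through PANC-1, so the correlation is a description of this set. Genes of low level such as DLL3 and genes of very high level such as RPS16 were both among those with differences above 3.

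The SAMD4B to AKT2 members took up a visible share of the PANC-1 transcriptome. Their sum was 0.267%, 0.249% and 0.265% of all TPM in MIA-PaCa2 against 4.24%, 3.61% and 3.79% in PANC-1. RPS16 made up the larger portion of it, at 2.98%, 2.18% and 2.40% in PANC-1. Without RPS16 the sum was 0.0816%, 0.0815% and 0.0861% in MIA-PaCa2 against 1.25%, 1.43% and 1.39% in PANC-1. Because TPM has a fixed sum, this share is taken from all other genes of the PANC-1 libraries. The members after AKT2 summed to 0.0325% to 0.0337% in MIA-PaCa2 and 0.0311% to 0.0331% in PANC-1, with ranges that overlap.

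**Figure D2:**
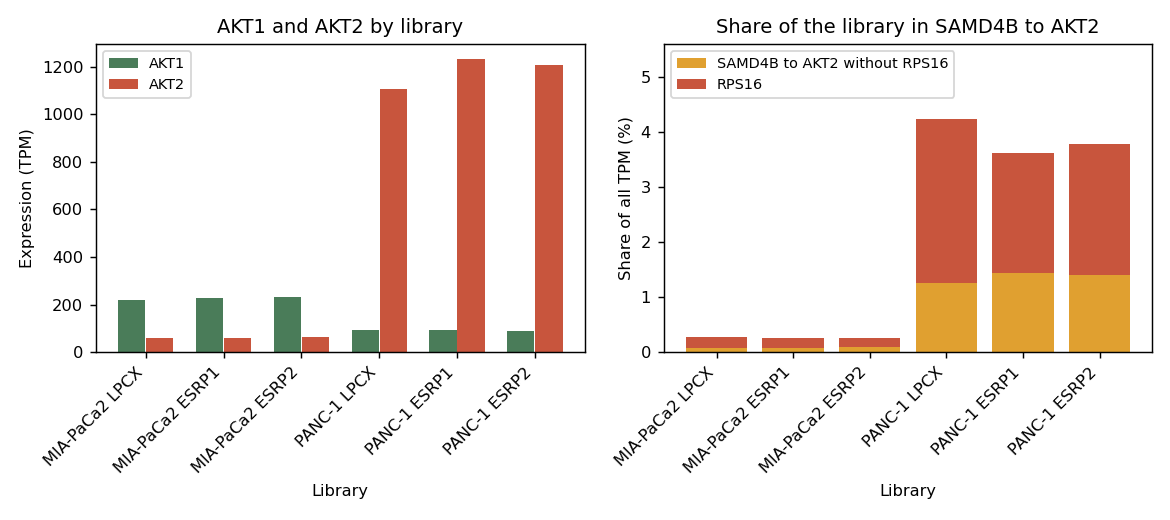
Left, TPM of AKT1 and AKT2 in each library as bars from 0. Right, percentage of all TPM from the members SAMD4B to AKT2, with RPS16 stacked in red on the remaining members in yellow. AKT2 exceeds AKT1 in the 3 PANC-1 libraries and lies below it in the 3 MIA-PaCa2 libraries, and the stacked share rises from at most 0.267% in MIA-PaCa2 to at least 3.61% in PANC-1.

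The members before SAMD4B were also higher in PANC-1, by less. All 8 that passed the filter had every PANC-1 value above every MIA-PaCa2 value, against 43.1% of all genes. Their median log2 difference was 2.46. FBXO27, the substrate-binding subunit of a ubiquitin ligase that recognises glycoproteins, stood out with 25.1, 25.9 and 30.2 TPM in MIA-PaCa2 and 489, 518 and 463 TPM in PANC-1, a log2 difference of 4.13. Its neighbour and relative FBXO17 was at 41.1 to 46.8 TPM against 291 to 322 TPM, a log2 difference of 2.80. NFKBIB, an inhibitor that holds NF-kappaB in the cytoplasm, was at 24.1, 26.9 and 23.6 TPM against 191, 232 and 245 TPM, an 8.95-fold difference. The remaining genes showed smaller gaps. SIRT2, an NAD-dependent deacetylase of tubulin and other proteins, was at 31.5 to 35.5 TPM against 136 to 153 TPM. PAK4, a kinase that acts downstream of CDC42, was at 68.8 to 75.8 TPM against 358 to 383 TPM. SIRT2 and PAK4 differed 4.36-fold and 5.11-fold. MRPS12, a mitochondrial ribosomal protein, was at 64.9 to 71.3 TPM against 394 to 430.0 TPM. SARS2, the mitochondrial seryl-tRNA synthetase, was at 26.6 to 28.999 TPM against 140.3 to 145 TPM. LRFN1, a synaptic adhesion protein, had the smallest difference of the 8, at 18.4 to 19.7 TPM against 37.2 to 47.2 TPM and 1.09 on the log2 scale. RINL, NCCRP1, SYCN and GMFG were below 5 TPM throughout, and the RINL ranges, 0.406 to 0.655 TPM and 0.515 to 0.616 TPM, overlapped.

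After AKT2 the difference ended within 1 gene. C19orf47 is an uncharacterised gene on the minus strand, and its nearer end lies 34.0 kb past AKT2. It was at 12.6, 15.2 and 15.6 TPM in MIA-PaCa2 and 20.3, 23.3 and 21.5 TPM in PANC-1, a log2 difference of 0.56. PLD3, a lysosomal member of the phospholipase D family, was lower in PANC-1, at 42.8 to 49.8 TPM against 52.6 to 57.3 TPM. Over the 10 members that passed the filter here, the median log2 difference was 0.07. LTBP4, which binds latent TGF-beta in the extracellular matrix, was the exception at 9.89, 8.64 and 11.2 TPM against 40.0, 37.1 and 38.6 TPM, a 3.89-fold difference. SHKBP1, a partner of the adaptor SH3KBP1, was higher by 0.50 on the log2 scale. SERTAD3, a transcriptional coregulator, was higher by 0.42. Its relative SERTAD1 and the inositol trisphosphate kinase gene ITPKC had overlapping ranges, 26.1 to 32.5 against 28.8 to 31.9 TPM for SERTAD1 and 7.09 to 8.83 against 7.11 to 9.05 TPM for ITPKC. BLVRB (biliverdin reductase B), NUMBL (a relative of the Notch inhibitor NUMB) and PRX (periaxin, known from myelin) were lower in PANC-1. BLVRB was at 119.6 to 145 TPM against 68.8 to 84.7 TPM, NUMBL at 16.4 to 18.7 TPM against 10.6 to 11.9 TPM, and PRX at 4.14 to 5.72 TPM against 2.10 to 2.67 TPM. SPTBN4, a spectrin gene below the filter, was at 1.14 to 1.62 TPM against 0.296 to 0.352 TPM, and HIPK4 was at most 0.343 TPM with overlapping ranges.

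The genes around and between the members differed between the 2 sides of the block. Within 3 Mb before RINL, 42 of 44 genes that passed the filter had every PANC-1 value above every MIA-PaCa2 value, against 43.1% of all genes, and their median log2 difference was 0.96. SPINT2, a serine protease inhibitor gene there, had a log2 difference of 6.55, above that of any member, and was picked out after its value was seen. The nearest 3 genes before RINL were HNRNPL, ECH1 and CAPN12, at 0.51, 2.53 and 2.11. Within 3 Mb after ITPKC, 13 of 33 genes were higher and 13 lower in this sense, with a median of -0.12. The next genes on that side were SNRPA at -0.65 and RAB4B at 1.87. Over the remaining 654 genes of chromosome 19 the median was -0.16. Inside the block, 8 genes that are not members passed the filter, and 6 of them were higher in every PANC-1 library. These 6 include the microRNA genes MIR641 and MIR6719, which lie within the members AKT2 and DYRK1B and are not separate neighbours. How reads were divided between them and these members is not known. C19orf54, which overlaps the end of ITPKC and is counted among these 8, was at -1.14. The 3 interferon lambda genes between PAK4 and LRFN1 were at most 1.20 TPM in MIA-PaCa2, and in PANC-1 IFNL1 was at 20.5 to 26.9 TPM, IFNL2 at 11.2 to 12.2 TPM and IFNL3 at 12.0 to 14.4 TPM. IFNL2 and IFNL3 are near copies, so the split between them is uncertain. ACP7, between FBXO27 and PAK4, had a log2 difference of 5.06.

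**Figure D3:**
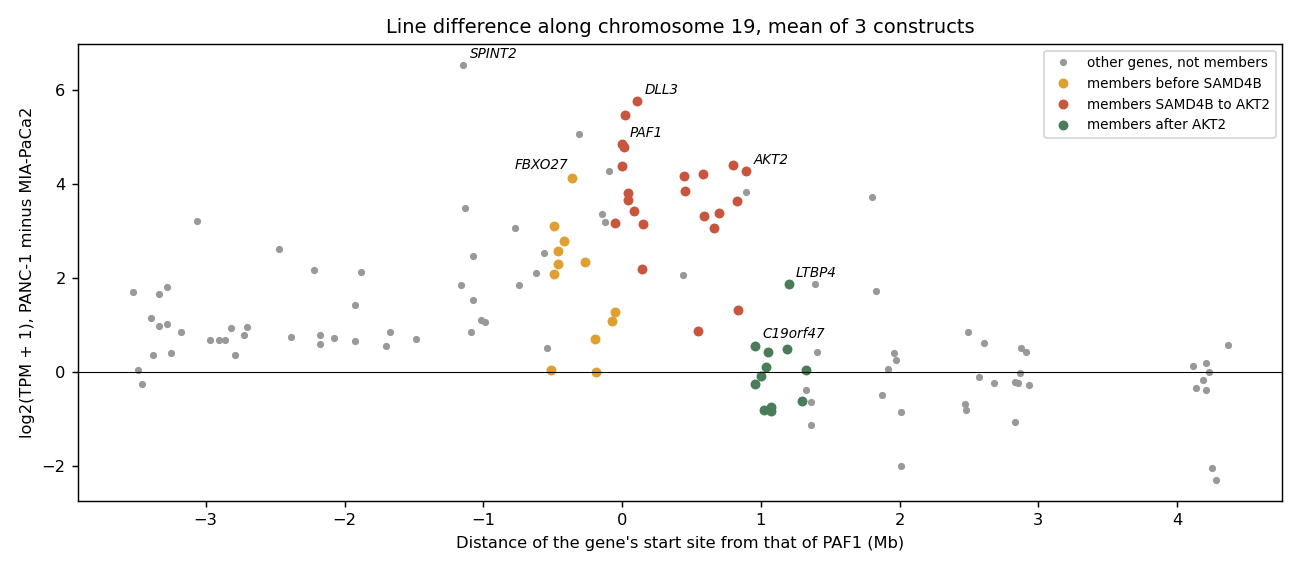
Mean log2(TPM + 1) of PANC-1 minus that of MIA-PaCa2 over 3 constructs, against the distance of each gene's start from that of PAF1 in Mb, with members coloured by section and other chromosome 19 genes within 3 Mb of the block in grey. The red members from SAMD4B to AKT2 lie mostly above 3, the yellow members before them mostly between 1.09 and 4.13, and the green members after AKT2 around 0 with LTBP4 at 1.86.

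The partners of these proteins, encoded outside the block, were then compared between the lines in a limma model with construct as a further term (Benjamini-Hochberg adjusted p under 0.05 over all 11829 genes). The partner genes were not chosen by their line difference. Of 164 genes in 9 lists, 155 passed the filter, of which 54 were higher in PANC-1 and 68 were lower. That compares with 43.1% higher and 35.6% lower over all genes, and the same shares are the background for each list below. Only LTBP1 of the 155 reached 8-fold higher in PANC-1, and the median log2 difference over the 155 was -0.08.

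PAF1 stood apart from the rest of its complex. CTR9 was higher in PANC-1 by 0.97 (SE 0.0756, adjusted p = 0.00011 in limma), WDR61 by 0.50 and LEO1 by 0.35 on the log2 scale. RTF1 was lower, at -0.47, and CDC73 was not called, at -0.15 (limma adjusted p = 0.122), though under median ratio scaling it was called lower at -0.21 (limma adjusted p = 0.0435). The LEO1 call was lost without either ESRP1 library, at 0.30 (limma adjusted p = 0.0745 and 0.0779). In MIA-PaCa2 PAF1 held rank 3 of 6 in the complex, at 1.05 to 1.27 times the median of its partners. In PANC-1 it held rank 1, at 35.8 to 38.8 times that median. Among 8 further pausing and elongation factors, 1 was higher in PANC-1 and 6 were lower, with a median of -0.41. NELFE, a subunit of the pausing factor NELF, was higher by 1.16. NELFB and NELFA of the same factor were at -0.74 and -0.45, and CDK9, the kinase that releases paused polymerase, at -0.70. SUPT5H went from 1.73 to 2.00 times the median of these partners to 27.5 to 29.6 times.

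Of 29 other Mediator subunits, 6 were higher and 16 lower in PANC-1, with a median log2 difference of -0.24. MED19 was the highest at 1.26, and MED16, MED15 and MED30 were the lowest at -1.09, -0.96 and -0.92. MED29 was among the middle ranks in MIA-PaCa2, at 16 to 20 of 30, and rank 1 in each PANC-1 library, at 22.9 to 23.1 times the partner median. Of the other 5 proteasome base ATPases, PSMC2 was higher by 0.61 and PSMC3 by 0.44, while PSMC1, PSMC5 and PSMC6 were not called, at 0.03, -0.10 and 0.13. PSMC4 was at 0.950 to 1.07 times their median in MIA-PaCa2 and at 13.8 to 14.0 times in PANC-1. The 3 partners of fibrillarin in the box C/D particle were all lower in PANC-1, with SNU13 at -0.67, NOP56 at -0.37 and NOP58 at -0.32. FBL held rank 2 of 4 in that particle in each MIA-PaCa2 library and rank 1 in each PANC-1 library, at 18.9 to 23.9 times the partner median.

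Of 30 other proteins of the small ribosomal subunit, 6 were higher and 19 lower in PANC-1, with a median log2 difference of -0.42. RPS6, RPS28, RPS15 and RPS18 had the 4 largest changes, at -1.34, -1.11, -0.996 and -0.84. RPS16 was at 0.952 to 1.05 times the partner median in MIA-PaCa2, rank 16 of 31, and at 14.9 to 17.1 times in PANC-1, rank 1. Of 10 partners of TIMM50, 4 were higher and 3 lower, with PAM16 and TIMM21 at 0.93 and 0.90 and HSPA9 and GRPEL1 at -0.95 and -0.75. TIMM50 moved from 0.679 to 0.776 times the partner median in MIA-PaCa2 to 4.93 to 5.14 times in PANC-1. In each of these 7 complexes the member held rank 1 in every PANC-1 library and in no MIA-PaCa2 library. These members were chosen for their higher levels in PANC-1, so their PANC-1 ranks and multiples reflect that choice and are only a description.

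**Figure D4:**
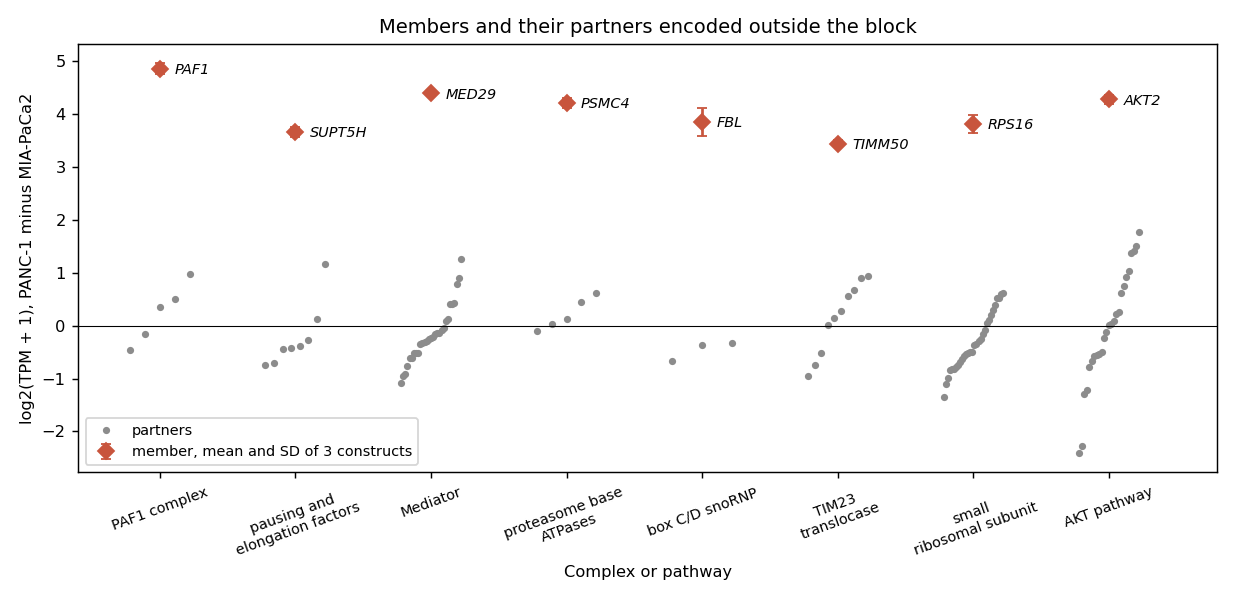
Log2(TPM + 1) of PANC-1 minus MIA-PaCa2 for 8 members (diamonds, mean and SD over 3 constructs) and for each partner gene outside the block that passed the filter (grey points, mean over 3 constructs), by complex or pathway. The 8 members lie between 3.44 and 4.86, and the partners between -2.41 and 1.77.

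AKT1, the closely related kinase, was lower in PANC-1, where AKT2 was higher. AKT1 was at 219, 227 and 232 TPM in MIA-PaCa2 and 93.3, 95.2 and 88.0 TPM in PANC-1, lower by a log2 difference of -1.28 (SE 0.0613, limma adjusted p = 2e-05). AKT2 was at 0.257 to 0.270 times the AKT1 level in MIA-PaCa2, and at 11.9 to 13.7 times it in PANC-1. Of 25 genes of the surrounding pathway that passed the filter, 10 were higher and 11 lower, with a median of 0.00. Over all genes, 43.1% were higher and 35.6% lower. PHLPP1, a phosphatase that removes an activating phosphate from AKT, was at -2.41. The phosphoinositide 3-kinase genes PIK3R1, a regulatory subunit, and PIK3CD, a catalytic subunit, were at 1.77 and 1.51.

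Paralogs of the members elsewhere in the genome included genes with large differences in both directions. Of 40 that passed the filter, 22 were higher and 9 lower, with a median of 0.77, against 43.1% higher, 35.6% lower and a median of 0.08 over all genes. ZFP36L1, a relative of ZFP36 with the same class of targets, was at 280.3 to 293 TPM in MIA-PaCa2 and 9.09 to 9.55 TPM in PANC-1, a log2 difference of -4.82. ZFP36 itself ran the other way, at most 7.55 TPM in MIA-PaCa2 and at least 211 TPM in PANC-1. LTBP1 and LTBP2, relatives of LTBP4, were higher in PANC-1 by 4.13 and 2.69, and PLD1, a relative of PLD3, by 2.69.

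The constructs, which played no role in choosing the block, were compared with LPCX in the same limma model with cell line as the other term and 2 residual degrees of freedom. None of the 38 members was called for ESRP1 (0 of 38, against 0.00845% of all genes) or for ESRP2 (0 of 38, against 0.0169%). The lowest adjusted p among members was 0.658 under ESRP1, shared by C19orf47, RPS16 and NFKBIB, and 0.329 under ESRP2, shared by MAP3K10 and SAMD4B (all limma). At an unadjusted p under 0.05, 0 of 38 members passed for ESRP1, against 6.93% of all genes. For ESRP2 3 of 38 passed, against 13.8%, namely MAP3K10 at 0.33 (SE 0.0711), ITPKC at 0.30 (SE 0.104) and SAMD4B at 0.23 (SE 0.0677). The median member difference was 0.04 for ESRP1, with 25 of 38 positive, and 0.12 for ESRP2, with 30 of 38 positive. Over all genes the median was 0.06 for both, and 68.3% and 65.1% were positive.

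Within each line the constructs gave the same picture, with 1 library per group and no test. In MIA-PaCa2 none of 33 members with 5 TPM in either library moved 2-fold under ESRP1 (1.28% of all genes did) or under ESRP2 (1.62%). In PANC-1 none of 37 did under ESRP1 (1.51% of all genes) or under ESRP2 (1.96%). The widest moves were those of RPS16 at -0.45 and FBL at 0.41 under ESRP1 in PANC-1, and EID2B at -0.38 and NFKBIB at 0.36 under ESRP2 in PANC-1. In MIA-PaCa2 the widest moves were PRX at -0.31 and C19orf47 at 0.24 under ESRP1, and BLVRB at -0.28 and ZNF780A at 0.37 under ESRP2. For the SAMD4B to AKT2 members the differences between constructs were small beside those between lines. These members were chosen for their line difference, so this comparison follows from that choice and is only a description.

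**Figure D5:**
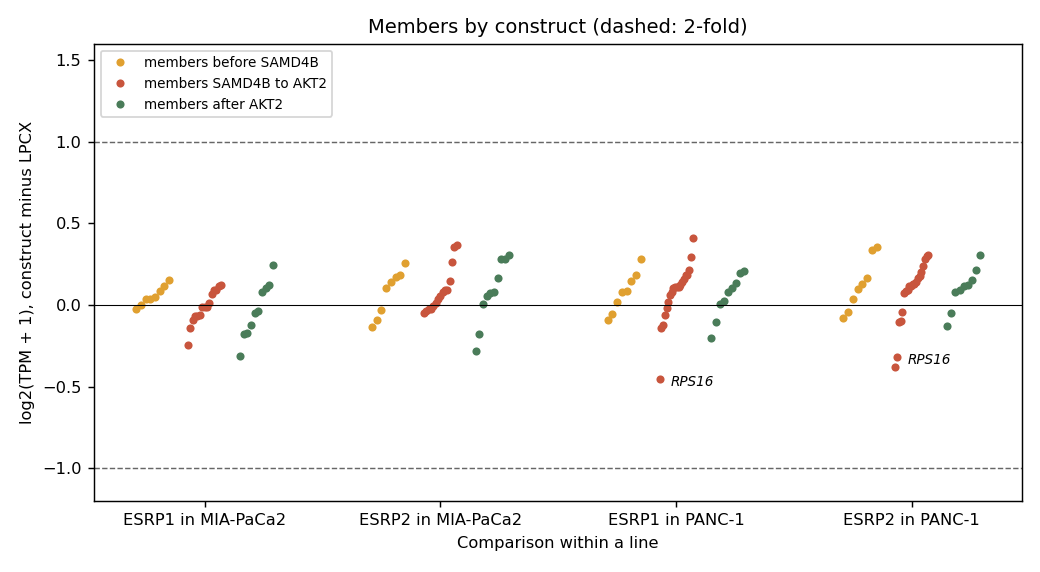
Log2(TPM + 1) of each ESRP library minus the LPCX library of the same line, 1 point per member with 5 TPM in either library, coloured by section, with dashed lines at 2-fold. All points lie between -0.45 and 0.41, and RPS16 is named in the PANC-1 comparisons.

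ESRP proteins act on splicing, so the shares of each gene's transcripts were compared as well. A share was counted as moved when it changed by at least 10 percentage points from LPCX, among 20 members with 5 TPM in every library and more than 1 transcript. Under ESRP1, 1 of 20 members moved the same way in both lines, against 2.62% of all genes, and under ESRP2 0 of 20 did, against 3.60%. The 1 gene was NUMBL, whose transcript NM_004756 was at 80.2%, 93.3% and 82.3% in MIA-PaCa2 against 74.2%, 90.8% and 94.6% in PANC-1. Its share was thus higher with ESRP1 in both lines and with ESRP2 in PANC-1. Within MIA-PaCa2 alone, 4 of 20 members moved under ESRP1 (16.0% of all genes) and 5 of 20 under ESRP2 (18.1%). Within PANC-1 2 of 20 moved under ESRP1 (13.6%) and 2 of 20 under ESRP2 (15.4%). These shares come from 1 library each, and those of low genes such as NUMBL rest on few reads of unknown number.

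AKT2, PAF1 and SAMD4B had the same main transcript in both lines at their different levels. The main AKT2 transcript, NM_001626, held 91.6%, 91.9% and 94.4% in MIA-PaCa2 against 89.7%, 89.3% and 91.3% in PANC-1. NM_019088 of PAF1 held 92.1% to 94.6% in MIA-PaCa2 and 97.3% to 97.8% in PANC-1. The main SAMD4B transcript, NM_001303614, held 60.8% to 64.3% in MIA-PaCa2 and 62.4% to 63.6% in PANC-1. Other members differed by line. SUPT5H transcript NM_001111020 was at 31.8%, 34.0% and 32.4% in MIA-PaCa2 against 58.1%, 60.8% and 58.6% in PANC-1, while NM_001130825 was at 16.5% to 19.7% against 1.34% to 2.00%. NM_003169, the main SUPT5H transcript in MIA-PaCa2 at 45.5%, 39.9% and 47.6%, was at 35.5%, 33.0% and 34.7% in PANC-1, so the main transcript differed between the lines. Beyond AKT2, LTBP4 also had a different main transcript in each line, with NM_001042544 at 0%, 22.1% and 6.59% in MIA-PaCa2 against 98.7%, 96.1% and 100% in PANC-1. Its transcript NM_001042545 was at 49.9% to 77.9% in MIA-PaCa2 and at most 1.32% in PANC-1. The third LTBP4 transcript, NM_003573, was at 22.8%, near 0% and 43.5% in MIA-PaCa2, so the shares varied among those libraries. How many of all genes differ this way between the lines was not counted.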

How the data were processed

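RNA of 6 libraries was quantified per transcript as TPM, deposited by the authors in 1 table of 67792 lines. Salmon and GRCh38 (hg38) are named per the submitters' processing notes, and the Salmon version is not given in the sources used here. Lines that repeat another line in full (8664) were dropped, after which each library summed to 1000000 TPM, and transcripts were summed by gene symbol. Of the 6 columns, 1 spells its cell line MIA-PaCo2 and was read as MIA-PaCa2, and ESRP12 was read as ESRP2, each being the only library left to match. TPM cannot be turned back into reads, so no count model was used.

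Differences are of log2(TPM + 1), so those of low genes are understated. limma 3.58.1 with trend (R 4.3.3) fitted line and construct together on the 11829 genes that reached 5 TPM in 2 or more libraries, with Benjamini-Hochberg adjustment over them. The model was also run on simulated data with independent noise in each library. That simulation cannot show how the p-values behave if libraries of a line share a culture. Gene positions are from GENCODE release 29, and promoter windows from RefSeq. The 46 members and the partner lists were chosen with earlier results of these data known. All members that passed the filter are named. Of the partner lists, the text names the PAF1 complex, the proteasome base ATPases, the box C/D particle, AKT1 and up to 4 called genes per list by size of change, and of the neighbours the nearest 3 on each side (C19orf54 overlaps the last member), and 1 further gene that this rule reaches is not reported here. A smaller pseudocount, other filters, median ratio scaling, coding transcripts alone and leaving out each library were tried as alternatives, and leaving out RPS16 was added after seeing the data.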

Additional observations from a re-analysis of the deposited data

Results flagged for a closer look

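C19orf47, the first gene after AKT2, had transcript shares that moved in opposite directions in the 2 lines, and the difference was not tested. The share of its non-coding transcript NR_046202 was at 39.7%, 30.4% and 28.2% in MIA-PaCa2 (LPCX, ESRP1, ESRP2), against 27.8%, 51.5% and 46.6% in PANC-1. The change from LPCX to ESRP2 in PANC-1 minus that in MIA-PaCa2 was 30.2 percentage points. For the coding transcript NM_001256441, at 44.4%, 56.5% and 65.5% in MIA-PaCa2 against 72.2%, 40.6% and 53.4% in PANC-1, the same difference was -43.6 points for ESRP1 and -39.8 points for ESRP2. The gene was at 12.6 to 23.3 TPM, and each share comes from 1 library.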

How the results depend on the processing

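The median log2 difference of the SAMD4B to AKT2 members, 3.83, was 4.04 with a pseudocount of 0.5, which raises low genes such as DLL3 (6.18) and TTC9B (4.39), and ranged from 3.79 to 3.87 when a library was left out. Without RPS16, an alternative added after seeing the data, it was 3.85. The number of all 46 members above MIA-PaCa2 in every PANC-1 library, 36, was 36 to 37 when a library was left out. That count cannot fall when a library is removed, so it says nothing about stability. The partner lists gave 47 to 54 higher and 59 to 64 lower genes when a library was left out. For the construct contrasts, leaving out a library leaves fewer than the 2 residual degrees of freedom of the full fit. It can also leave a construct with a single library, so calls from those fits cannot show whether the construct result is stable. With a step of 20 percentage points 0 members had a transcript share that moved the same way in both lines under ESRP1. Among the named genes, CDC73 became lower in PANC-1 under median ratio scaling (-0.21, limma adjusted p = 0.0435) and without either ESRP2 library (-0.23), and ITPKC, whose groups overlap, was at -0.01 under median ratio scaling. C19orf47 was at 0.33 over coding transcripts alone. With the construct term in the model, a library left out takes its partner of the same construct out of the line contrast, and the lone library is assumed to vary like the others. Each group has 1 library, so there are no replicate numbers to block on. The construct term of the main model pairs the 2 lines by construct. Depth is unknown and limits low genes most.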
